A study of Drosophila melanogaster with 3 samples.

Results

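The genes described here carry the symbols given to proteins of the cytoplasmic ribosome of Drosophila melanogaster. They were the protein-coding genes of the Ensembl annotation of assembly BDGP6 whose symbol begins with RpL or RpS, together with sta, which encodes a small subunit protein. Symbols of the mitochondrial ribosome, which begin with mRp, were left out. This gave 93 of 13945 protein-coding genes, of which 54 were counted to the large subunit and 39 to the small subunit by symbol. ChIP-seq, in which chromatin is pulled down with an antibody and the recovered DNA sequenced, was done on whole embryos 0 to 24 h old from flies with a CG11695-eGFP transgene, using an antibody against GFP, in 3 biological replicates that form 1 group. CG11695 encodes a zinc finger protein, and eGFP is an enhanced green fluorescent protein that serves as the tag. All samples carry the same transgene, and what drives its expression is not given in the sources used here. Neither an input nor a mock library was used here, so sites recovered by any precipitation and sites bound by the tagged protein cannot be told apart. Whole embryos mix all tissues and stages, so a site used in few cells and a weakly used site cannot be told apart either.

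Ribosomal protein genes are among the most strongly transcribed genes of growing cells, and their products are needed in equal amounts for each ribosome. In flies many of their promoters start transcription within a short pyrimidine run, known as the TCT initiator, in place of the usual initiator. Work in flies has linked these promoters to the zinc finger protein M1BP, to the DNA replication-related element factor encoded by Dref, and to the TBP-related factor encoded by Trf2.

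The promoters of 12 members are shown to let the letters be set beside the positions of the peaks. Each line holds 200 bases before the annotated gene start and the first 10 bases of the transcript, 5′ to 3′ on the strand of the gene, from the RefSeq copy of Release 6 of the fly assembly (dm6). Capitals mark CTTT with its C within 5 bases of the start, and, on either strand, TATCGATA (the DRE, bound by Dref), GTCACACT (the core of motif 1, bound by M1BP), TATAAA (the TATA box), GAGAG (the core bound by GAGA factor), the AT-rich AAATAT, and ACAGTG, which has no known factor assigned here. The first set holds members with strong peaks at different distances from the start, and RpS10b, 1 of 3 members shown with a DRE.
RpL34b (chr3R:9401217-9401426, minus strand): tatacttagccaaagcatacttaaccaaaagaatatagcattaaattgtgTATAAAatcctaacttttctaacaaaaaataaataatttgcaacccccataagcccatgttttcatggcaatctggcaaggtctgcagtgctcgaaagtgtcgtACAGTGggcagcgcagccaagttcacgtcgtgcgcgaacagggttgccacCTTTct
RpL34a (chr3R:26059258-26059467, minus strand): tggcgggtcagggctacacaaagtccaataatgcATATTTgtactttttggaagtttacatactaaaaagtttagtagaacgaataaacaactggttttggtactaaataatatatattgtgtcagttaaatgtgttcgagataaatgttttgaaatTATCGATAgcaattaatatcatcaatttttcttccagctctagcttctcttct
RpL32 (chr3R:30046152-30046361, minus strand): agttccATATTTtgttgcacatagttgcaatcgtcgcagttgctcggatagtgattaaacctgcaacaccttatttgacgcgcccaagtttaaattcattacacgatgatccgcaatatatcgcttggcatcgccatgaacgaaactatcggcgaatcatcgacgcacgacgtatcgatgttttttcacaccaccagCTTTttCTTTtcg
RpS20 (chr3R:20821981-20822190, plus strand): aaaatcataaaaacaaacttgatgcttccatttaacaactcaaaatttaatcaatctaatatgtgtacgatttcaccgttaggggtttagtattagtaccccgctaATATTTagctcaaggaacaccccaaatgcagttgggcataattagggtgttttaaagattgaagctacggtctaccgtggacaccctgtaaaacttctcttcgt
RpL7 (chr2L:10200804-10201013, plus strand): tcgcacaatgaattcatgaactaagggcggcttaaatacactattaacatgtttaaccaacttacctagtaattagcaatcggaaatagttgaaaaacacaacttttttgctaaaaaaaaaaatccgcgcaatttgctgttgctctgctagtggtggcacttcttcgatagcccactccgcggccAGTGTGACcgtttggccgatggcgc
RpL14 (chr3L:8600806-8601015, plus strand): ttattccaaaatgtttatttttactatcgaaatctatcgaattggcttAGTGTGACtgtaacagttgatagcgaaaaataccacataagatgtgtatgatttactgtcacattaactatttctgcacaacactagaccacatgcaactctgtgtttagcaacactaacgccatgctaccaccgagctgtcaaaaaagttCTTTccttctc
RpS25 (chr3R:11216278-11216487, minus strand): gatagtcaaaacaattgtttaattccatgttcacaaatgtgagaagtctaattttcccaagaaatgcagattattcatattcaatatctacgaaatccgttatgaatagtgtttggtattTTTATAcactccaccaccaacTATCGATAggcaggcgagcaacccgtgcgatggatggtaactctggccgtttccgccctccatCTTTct
RpS10b (chrX:19597831-19598040, plus strand): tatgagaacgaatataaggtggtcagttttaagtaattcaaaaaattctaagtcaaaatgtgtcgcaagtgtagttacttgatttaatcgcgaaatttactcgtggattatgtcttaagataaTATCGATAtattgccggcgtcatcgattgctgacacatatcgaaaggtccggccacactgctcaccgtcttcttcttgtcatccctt

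The second set pairs copies of the same protein gene, of which RpS19a and RpS5a had a peak and RpS19b and RpS5b had none.
RpS19a (chrX:16637694-16637903, plus strand): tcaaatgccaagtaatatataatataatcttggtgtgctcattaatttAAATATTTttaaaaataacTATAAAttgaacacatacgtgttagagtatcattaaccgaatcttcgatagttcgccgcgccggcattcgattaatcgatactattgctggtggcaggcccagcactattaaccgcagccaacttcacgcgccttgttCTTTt
RpS19b (chr3R:23933521-23933730, minus strand): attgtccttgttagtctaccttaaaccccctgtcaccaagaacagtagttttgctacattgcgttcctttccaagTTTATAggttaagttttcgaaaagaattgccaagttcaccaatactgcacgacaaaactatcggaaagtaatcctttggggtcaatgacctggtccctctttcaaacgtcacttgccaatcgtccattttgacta
RpS5a (chrX:17148255-17148464, minus strand): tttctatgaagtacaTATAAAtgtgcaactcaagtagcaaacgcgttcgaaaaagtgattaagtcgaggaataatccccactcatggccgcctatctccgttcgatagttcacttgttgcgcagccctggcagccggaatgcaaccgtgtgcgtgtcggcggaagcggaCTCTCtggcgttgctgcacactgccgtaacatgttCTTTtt
RpS5b (chr3R:14901554-14901763, minus strand): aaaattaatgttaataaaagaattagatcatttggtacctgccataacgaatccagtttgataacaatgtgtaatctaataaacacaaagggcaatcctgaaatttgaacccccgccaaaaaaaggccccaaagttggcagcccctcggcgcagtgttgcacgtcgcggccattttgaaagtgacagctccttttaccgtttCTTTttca

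In the authors' conservative list a peak stood at most of these genes, while in the list of each single replicate it stood at a minority. The main list was the authors' conservative peak list of 4770 records, each with a summit and a signal value of the authors. A gene was counted as having a promoter peak when a summit lay within 500 bp of the start of any of its transcripts. By this count 58 of the 93 members (62.4%) had a promoter peak, against 2257 of all 13945 protein-coding genes (16.2%). The large subunit had 36 of 54 (66.7%) and the small subunit 22 of 39 (56.4%). The main list was made from pooled libraries, so the list deposited for each replicate on its own is the better measure of how the result repeated. In the own list of replicate 1, 39 members (41.9%) had a promoter peak, against 12.5% of all genes. In that of replicate 2 it was 36 members (38.7%), against 10.2% of all genes. In that of replicate 3 it was 35 members (37.6%), against 10.7% of all genes. The 3 shares of the members lay close together and well above the 3 shares of all genes, with means of 39.4% ± 2.24 and 11.1% ± 1.21 (SD, n = 3).

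**Figure D1:**
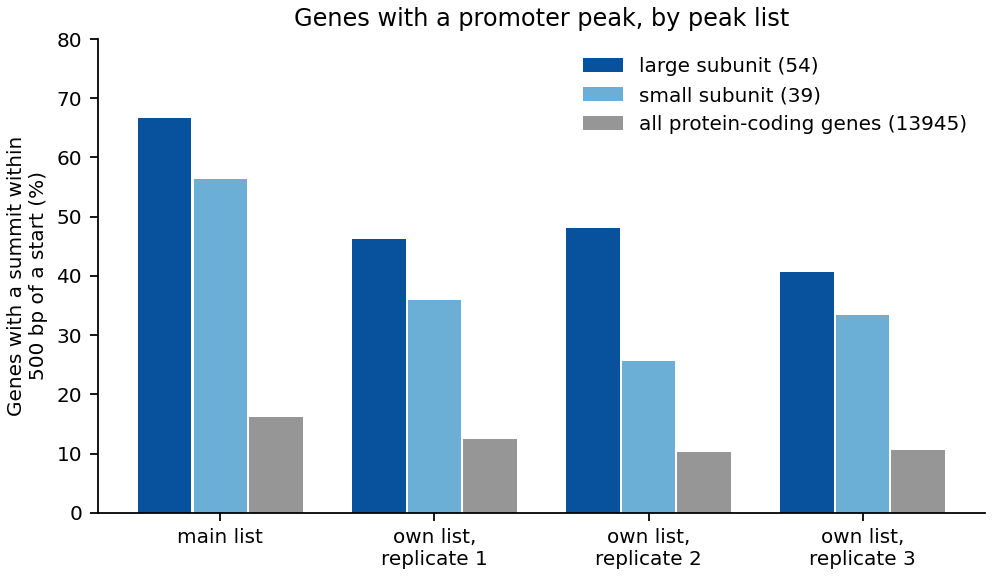
Share of genes (percent, y axis) with a summit within 500 bp of a transcript start in the main list and in the own list of each replicate, for the large subunit, the small subunit and all protein-coding genes. Both subunits stood above all genes in every list, from 25.6% for the small subunit in replicate 2 upwards, against at most 16.2% of all genes.

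The large subunit had the higher share in the main list and in each own list, by differing amounts. In replicate 1 the large subunit had a promoter peak at 25 genes (46.3%) and the small subunit at 14 (35.9%). In replicate 2 the values were 26 (48.1%) and 10 (25.6%), and in replicate 3 they were 22 (40.7%) and 13 (33.3%). Over the own lists the large subunit averaged 45.1% ± 3.85 and the small subunit 31.6% ± 5.34 (SD, n = 3), and the highest share of the small subunit lay below the lowest of the large one. These shares come from the same libraries and a fixed set of genes, and no test was made of the difference. In the ranked lists, where most genes of any kind have a record, the order was the other way. The pooled one held 87.0% of the large and 100% of the small subunit, against 77.0% of all genes. Those of the replicates held 87.0% to 90.7% and 92.3% to 97.4%, against 65.4% to 70.0% of all genes.

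A promoter peak in all 3 own lists was found at 23 members (24.7%), against 7.21% of all genes. These were 16 genes of the large and 7 of the small subunit. A further 9 members had one in 2 own lists and 23 in 1, and 38 had none. Of the 58 members with a main peak, 23 (39.7%) were in all 3 own lists and 9 in none, and among all genes with a main peak 44.4% were in all 3. Repeatability of a main peak was therefore near that of other genes.

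The peaks of these genes were of middling height. Their signals in the main list ran between 57.0 and 379 with a median of 124, while over all genes with a main peak the median was 145 and the highest 2266. The median was 135 for the large and 101 for the small subunit. The scale of the signal is not stated, so values are set side by side within a list alone. Signals above 200 were found at 13 of the 58 members (22.4%), against 743 of 2257 genes (32.9%). All 13 were in the 3 own lists, as were 96.4% of the 743. Of 27 members with signals between 100 and 200, 10 (37.0%) were in all own lists, against 32.3% of 882 genes. Of 18 members below 100 none was, against 0.316% of 632 genes. Presence in the own lists thus went with signal in much the same way over all genes.

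**Figure D2:**
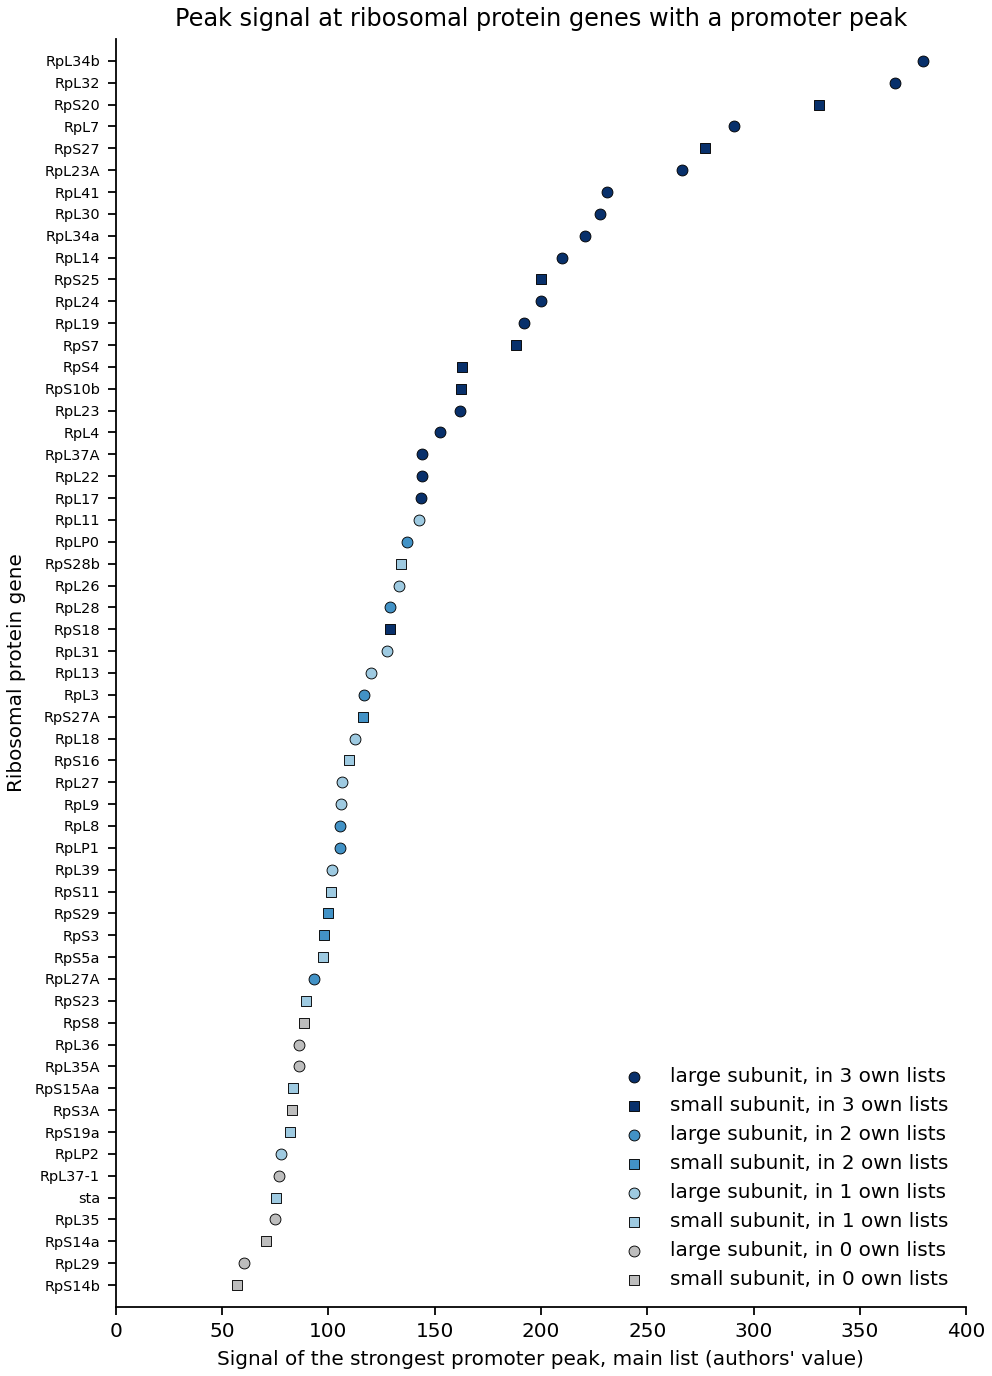
Signal of the strongest promoter peak in the main list (x axis, the authors' value) for 57 of the 58 members that had a peak (y axis), with circles for the large and squares for the small subunit and darker fill for presence in more own lists. The 12 members drawn above 200 were in all 3 own lists, and the 18 members below 100 were in fewer than 3.

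RpL34b, which encodes a large subunit protein, had the highest signal of the members, 379, at rank 357 of the main list (chr3R:9401296-9401516). Its signals in the own lists of replicates 1, 2 and 3 were 158, 121 and 106, at ranks 323, 368 and 379. RpL32, widely used as a reference gene in measurements of fly RNA, followed with 367 in the main list (chr3R:30046172-30046443) and with 150.0, 116 and 94.3 in the own lists, at ranks 363, 400 and 480. Each gene thus kept a similar place in every replicate. RpS20 of the small subunit had 331 in the main list (chr3R:20821910-20822112) and 122, 96.4 and 98.7 in the own lists. RpL7 of the large subunit had 291 in the main list (chr2L:10200943-10201118) and 112, 115 and 62.3 in the own lists, so replicate 3 was the lowest for this gene. RpS27, which encodes a zinc finger protein of the small subunit, had 277, with 100.3, 117 and 45.8 in the own lists. It ranked 397 in replicate 2 and 1716 in replicate 3, a wide spread for a peak of this height.

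Among the next members by signal were RpL23A with 266, RpL41 with 231, RpL30 with 228, RpL34a with 221, RpL14 with 210 and RpS25 with 200.2. RpL41 encodes the smallest protein of the ribosome. RpL34a was the least even of these between libraries, with own-list signals of 37.3, 97.4 and 78.8 and ranks of 3091, 545 and 655. RpL30 had 90.8, 60.5 and 90.5, at ranks of 911, 1274 and 512. RpL23A and RpS25 kept closer ranks, of 709, 728 and 855 and of 1239, 1292 and 1013. The weakest main peaks were those of RpS14b with 57.0, RpL29 with 60.2 and RpS14a with 70.6, and none of them was in an own list.

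Across members, signals of the ranked lists, which hold weak records as well, were correlated between replicates, in most pairs less closely than across all genes. Spearman's rho was 0.709 for replicates 1 and 2 (83 members), 0.635 for 1 and 3 (81) and 0.601 for 2 and 3 (80), against 0.695, 0.697 and 0.682 for all genes. Pearson's r on the log2 scale was 0.72, 0.69 and 0.65 for the members, against 0.80, 0.78 and 0.78. These correlations are across genes, which are not independent replicates, and the libraries share genome-wide features such as local sequence.

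The clearest difference in position was that summits of ribosomal protein genes sat on the transcription start. The median offset of the strongest summit from the nearest start of its gene was -10.5 bp for the 58 members, with quartiles of -46 and 21.5, negative values lying upstream. Over all 2257 genes with a main peak it was -142 bp, with quartiles of -225 and -56. Of the members' summits 37 (63.8%) lay within 50 bp of a start, against 10.5% for all genes, and 34 (58.6%) lay upstream, against 81.0%. The ranges between the quartiles did not overlap. In the own lists the median offset averaged -23.2 ± 4.86 bp for the members and -149 ± 5.29 bp for all genes (SD, n = 3), so the distance between them was many times the spread over replicates. Upstream shares in the own lists were 75.4% ± 3.45 and 85.9% ± 1.16 (SD, n = 3).

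**Figure D3:**
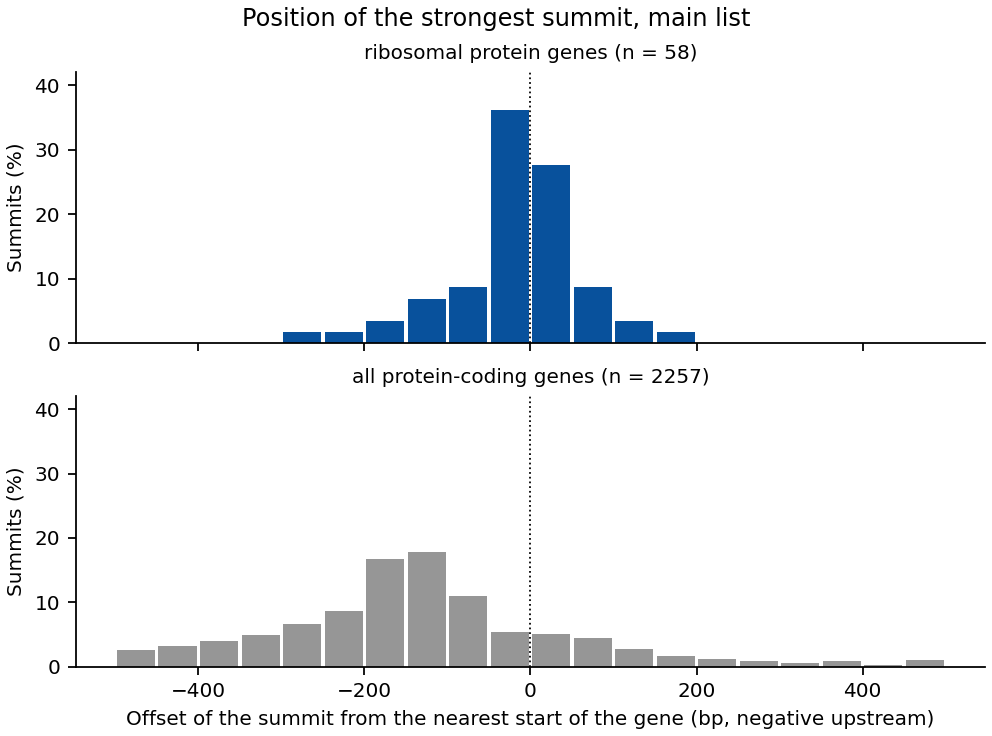
Distribution of the offset of the strongest main summit from the nearest start of its gene (x axis, bp, negative upstream; y axis, percent of summits in bins of 50 bp) for 58 ribosomal protein genes (upper panel) and 2257 protein-coding genes (lower panel). The bins beside the start hold 36.2% and 27.6% of the members' summits, while over all genes the fullest bin, 17.8%, lies 100 to 150 bp upstream.

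How the start was defined moved the centre by about 20 bases and left the contrast in place. Members had 1.70 annotated starts per gene on average, against 1.41 for all genes, and the nearest was used. With the gene start alone the members' median was 11.5 bp with 53.4% within 50 bp, against -132 bp and 9.95% for all genes. With that choice 43.1% of the members' summits lay upstream, against 76.9% for all genes, so whether most summits lie just before or just after the start depends on the choice of start.

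The 5 members with a summit farthest from a start were RpL23 at -261 bp, RpL11 at -205, RpL34b at -186, RpS3 at 177 and RpS20 at -165. RpL11 encodes a protein that joins the ribosome together with RpL5 and the 5S RNA. RpL23 had offsets of -265, -54 and -253 bp in the own lists of replicates 1, 2 and 3. The record at -54 bp was weak, with a signal of 16.1, and the strongest ranked-list record of replicate 2 lay at -334 bp with 32.0. Of the 23 members in all own lists the range over replicates was smallest for RpL4 with 5 bp (offsets of -19, -24 and -21), RpL37A with 6 bp and RpL30 with 7 bp. The median range was 36 bp for these 23 members and 34 bp for the 1006 genes in all own lists, so the members' summits were placed about as repeatably as those of other genes.

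Stronger peaks lay farther upstream. The median offset was -78 bp for the 13 members with signals above 200, -14 bp for those between 100 and 200 and 21 bp for those below 100. Over all genes the corresponding medians were -156, -154 and -79 bp. Across the 58 members the offset and the log2 signal had a Pearson's r of -0.55 and a Spearman's rho of -0.576, against -0.15 and -0.188 across 2257 genes. In the promoters printed above, the summits of RpL34b, RpL32 and RpS20 fell at offsets of -186, -122 and -165 bp from the nearest start, those of RpL14 and RpS10b at -16 and -14 bp, and those of RpL7 and RpS19a at 39 and 84 bp.

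**Figure D4:**
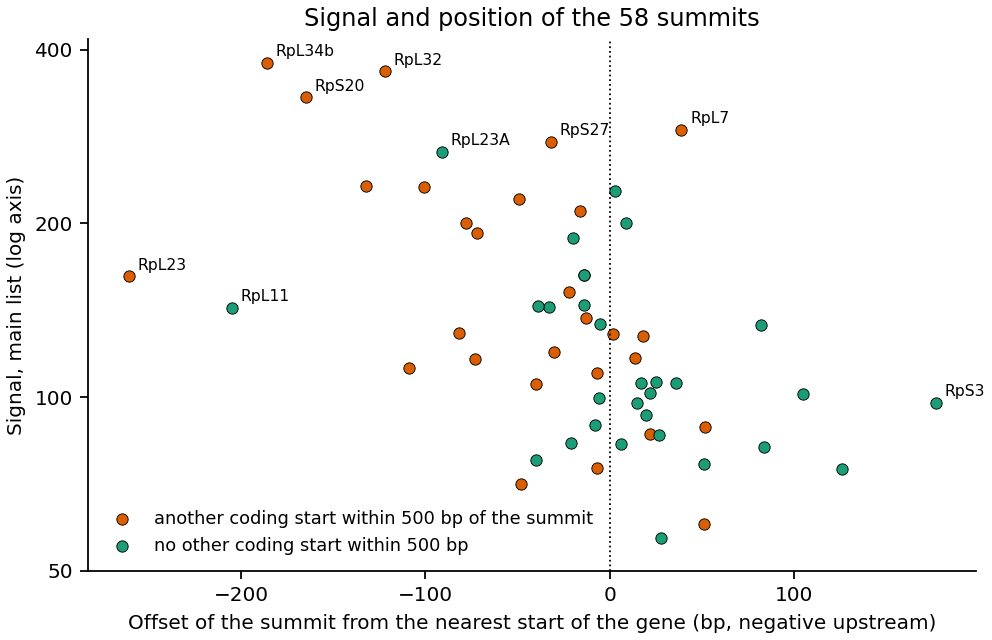
Signal in the main list (y axis, log axis) against the offset of the summit from the nearest start of the gene (x axis, bp, negative upstream) for 58 ribosomal protein genes, coloured by whether the start of another protein-coding gene lay within 500 bp of the summit. The 3 strongest, RpL34b, RpL32 and RpS20, lie more than 100 bp upstream and have such a neighbour.

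Signals were higher where another gene starts close by. The start of another protein-coding gene lay within 500 bp of the summit for 28 of 58 members (48.3%), close to the 47.4% of all genes with a main peak, and in 27 of the 28 it lay on the opposite strand. The exception was RpS27A, with Ip259 on the same strand. Median signals were 133 for the 28 members with such a neighbour and 104 for the 30 without, against 161 and 129 over all genes. Of the 13 members with signals above 200, 10 had such a neighbour, against 401 of the 743 genes with such signals. Members with a neighbour had a median offset of -36 bp and those without 7.5 bp, while over all genes the medians were -140 and -145 bp. Among the 30 members without a neighbour 73.3% of summits lay within 50 bp of a start, against 12.5% of 1188 genes without one. The position at the start was thus also seen where no other protein-coding gene starts near, though non-coding genes start near some of these summits, as at RpL37A, RpL22, RpL17 and RpS29. The part of the neighbouring promoters in the signal was not tested.

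The summit lay nearer to the other gene's start in 3 members (5.17%), against 22.5% of all genes. These were RpL34b, whose summit was 83 bp from a start of CG8132, RpL41, 81 bp from NaCP60E, and RpL19, 59 bp from CG3776. NaCP60E encodes a sodium channel protein. For the other strong members the ribosomal protein gene was the nearer of the pair, as for RpL32 beside CG7943, RpL7 beside Ripalpha, RpS27 beside Nup37 and RpL14 beside Nelf-E. The summit of RpS20 lay nearly midway, 165 bp from its own start and 168 bp from that of CG17271. Its offsets in the own lists ranged over 22 bp. RpL13 and Dref share a summit 54 bp from a start of Dref, and RpL28 stands back to back with the translation initiation factor gene eIF1.

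Base composition at the summits followed the position. In the 200 bp around the summit the median GC content was 43.0% for the 58 members and 33.3% for all 2257 genes with a main peak. Around the gene starts of the same genes the medians were closer, 43.0% and 41.8%. Members with a summit within 50 bp of a start had 44.8% GC at the summit (n = 37), against 42.3% for all genes with a summit that close (n = 237). Around the start, members with a main peak had 43.0% and members without 37.3%.

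Many fly ribosomal protein genes carry small nucleolar RNA genes, which guide the modification of ribosomal RNA, in their introns. Of 29 members that hold at least 1 such gene 20 had a main peak (69.0%), against 38 of 64 members that hold none (59.4%). RpS5a holds the most, 14, and had a signal of 97.6. By chromosome arm the share of members with a main peak was 13 of 15 on X (86.7%), 13 of 21 on 2R, 14 of 23 on 3R, 8 of 14 on 3L and 9 of 19 on 2L (47.4%), against 15.1% to 17.7% of all genes on these arms. RpS3A, the member on chromosome 4, had a peak.

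Members grouped as copies by their symbols mostly differed, with a peak at 1 member of the group alone. By symbol, 27 members fell into 13 groups of copies, and 14 of the 27 (51.9%) had a main peak, against 44 of 66 members without a copy (66.7%). A peak at every copy was found in 2 groups, RpL34 and RpS14. At 1 copy alone it was found in 10, namely RpL22, RpL24, RpL37-1, RpL7, RpLP0, RpS10b, RpS15Aa, RpS19a, RpS28b and RpS5a. RpL10Aa and RpL10Ab had no main peak, and RpL10Ab was in the own list of replicate 2. None of the 5 members named "-like" (RpL22-like, RpL24-like, RpL7-like, RpLP0-like and RpS28-like) had a main peak. Whether their products are parts of the ribosome was not examined, so their groups need not hold copies of 1 ribosomal protein gene.

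Copies known to be enriched in the germ line in flies were on the side without a peak. RpS5a had ranked-list signals of 35.7, 31.4 and 29.9 in replicates 1, 2 and 3. RpS5b, a copy enriched in the female germ line, had 8.64 in replicate 1, no record in replicate 2 and 13.7 in replicate 3. The values of the copies did not overlap. The main peaks that set the copies apart come from these same libraries, so the ranked-list signals are no separate evidence of a difference. RpS19a had 24.8, 21.2 and 37.7, against 6.64 and 9.92 for RpS19b in replicates 1 and 2, with no record in replicate 3. RpS10b had 63.0, 55.4 and 49.6, against 9.98, 6.89 and 10.4 for RpS10a, another copy known from the germ line. RpL22 had 56.9, 50.5 and 36.1, and RpL22-like, a copy enriched in testis, had no record in any replicate. Expression was not measured here.

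Further pairs differed to varying degrees. RpS15Aa had 34.2, 31.7 and 21.9, against 23.6, 17.4 and 19.6 for RpS15Ab, which had no main peak. RpS15Aa was thus the higher in each replicate. Its value in replicate 3 lay below that of RpS15Ab in replicate 1, which is from another library. RpS28b had 52.4, 48.8 and 32.0, against 11.3, 9.90 and 28.3 for RpS28a, and RpS28-like had a record in replicate 3 alone, at 17.2. RpL24 had 70.0, 59.4 and 72.0, against 23.3, 9.31 and 22.1 for RpL24-like. RpL7 had 112, 115 and 62.3, against 24.4 and 20.8 for RpL7-like in replicates 2 and 3. RpLP0, whose product forms the base of the ribosomal stalk, had 62.9, 52.4 and 28.3, against 12.2, 14.1 and 20.1 for RpLP0-like. In these 4 groups every value of the copy with a main peak lay above those of its partners. The main list was made from libraries of this same series. Higher ranked-list signals at the copy with a main peak therefore follow in part from how the copies were split.

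The RpL34 copies both had peaks, with 158, 121 and 106 for RpL34b and 37.3, 97.4 and 78.8 for RpL34a. RpS14a and RpS14b lie in tandem on X, and their ranked signals moved together, at 26.2, 16.0 and 34.9 for RpS14a and 24.2, 12.9 and 33.3 for RpS14b. Their coding sequences are near copies of each other, and how reads with several placements were treated is not given in the sources used here, so the peaks of this pair are uncertain as separate sites. RpL37-1 had 30.6, 16.4 and 24.4, and RpL37-2 had no record in any list. RpL10Ab had 35.3, 34.1 and 18.9, and RpL10Aa a record of 4.01 in replicate 3 alone. The promoters of paralogous copies matched each other at 48.3% to 53.6% of aligned positions, inside the range of 45.8% to 55.7% for 78 pairs of members that are not copies.

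**Figure D5:**
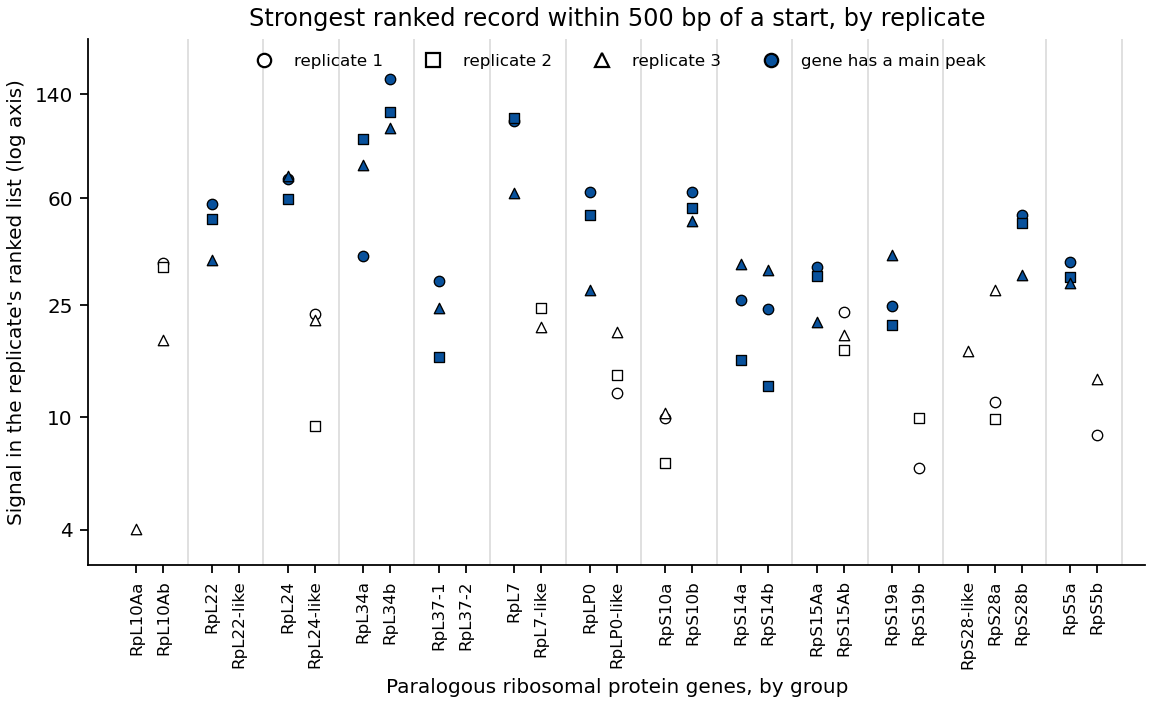
Signal of the strongest record within 500 bp of a start in each replicate's ranked list (y axis, log axis) for the 27 paralogous members, grouped by symbol, with filled symbols for genes with a main peak and no symbol where a list held no record. RpS10b and RpS15Aa stand above their partners in every replicate, as does RpS5a in the 2 replicates where RpS5b has a record. The values of RpS15Aa and RpS15Ab overlap between different replicates only.

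The 35 members without a main peak were 18 of the large and 17 of the small subunit. Beside the copies named above they included RpL5, RpL6, RpL7A, RpL10, RpL12, RpL13A, RpL15, RpL21, RpL36A, RpL38, RpL40, RpS2, RpS6, RpS9, RpS12, RpS13, RpS15, RpS21, RpS24, RpS26 and RpS30. RpS6 is the ribosomal target of S6 kinase, and RpL40 and RpS30 are made as fusions to ubiquitin or a protein like it. A record in the pooled ranked list of 111051 records was common, at 77.0% of all 13945 protein-coding genes. Most of the 35 members had a weak record there: 28 had 1, with a median signal of 54.4 and a range of 2.01 to 108. The median was 124 for members with a main peak and 33.5 for 8488 genes without a main peak. The median of members outside the main list thus lay between those of the members in it and of other genes outside it.

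RpL13A was the strongest of these, with a pooled signal of 108 and −log10 of the global IDR, the irreproducible discovery rate, of 2.53. This is past the threshold of 2, yet the record is missing from the thresholded list, as are 122 of 4892 records past that threshold, and why is not given in the sources used here. RpS15 followed with 95.2 and a −log10 of 1.88, and RpS6 with 81.5 and 1.83, both just short of the threshold. On the other side of the threshold stood RpS14b, RpL29 and RpS14a, whose signals were lower. RpS15, RpS6 and RpS9 were in the thresholded list from pooled data.

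An own list held 6 members that the main list did not, against 377 of all 13945 protein-coding genes. These included RpL7A, RpL10Ab and RpL5 in replicate 2, and RpS15 and RpL36A in replicate 3. RpL7A had ranked signals of 14.5, 42.1 and 30.2, and RpL36A of 11.7, 13.8 and 43.6, so RpL36A was high in replicate 3 alone. In total 68 of the 93 members were in at least 1 thresholded list and 25 in none, a count not made for all genes. In the own lists alone 38 of the 93 members had no peak, against 11754 of all 13945 genes.

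The other 7 members without a main peak had no record in the pooled ranked list. They were RpL5 (chr2L:22532279-22536884), RpL10 (chr3L:23093190-23095471), RpL10Aa, RpL15 (chr3L:27267255-27268445), RpL21 (chr2L:22247111-22247875), RpL37-2 and RpL38 (chr2R:4515388-4516458). RpL38 and RpL37-2 had no record in any ranked list. RpL5, RpL15 and RpL38 are known as genes of the repeat-rich heterochromatin beside the centromeres. Peak lists do not show how well reads could be placed there.

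The TCT initiator letters and the DRE were found several times more often in the members than in all promoters, and differed less between members with and without a peak. CTTT with its C within 5 bases of the gene start stood at 31 of 93 members (33.3%), against 5.64% of all protein-coding genes. It stood at 22 of 58 members with a main peak (37.9%) and at 9 of 35 without (25.7%). Counted at any annotated transcript start the shares were 62.4% of members and 8.07% of all genes, with 70.7% among members with a main peak and 48.6% among those without. RpL34b, RpL32, RpL14, RpS25, RpS19a and RpS5a have this sequence in the lines above, and so has RpS5b, which had no peak.

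The other sequences were searched between 250 bases before and 50 after the start. TATCGATA was in 28 members (30.1%), against 9.36% of all promoters, and its share was similar in members with a main peak (29.3%) and without (31.4%). GTCACACT was in 11 members (11.8%), against 6.62%, with 15.5% among members with a main peak and 5.71% among those without. It stands in the lines above for RpL7, next to the start, and for RpL14. TATAAA was in 48.4% of members and 45.8% of all promoters in this window, but between 100 bases before and 50 after the start in 12.9% and 23.9%. GAGAG was in 17.2% of members and 29.7% of all promoters. AAATAT was in 64.5% of members and 53.7% of all promoters, and ACAGTG in 20.4% and 13.9%. Among genes with a main peak ACAGTG was in 22.4% of members and 20.8% of all genes. Between 100 bases before and 50 after the start ACAGTG was in 9.68% of members and 8.12% of all promoters. In that window AAATAT was in 25.9% of members with a main peak, close to the 26.1% of all genes with one. It was in 17 of 35 members without a main peak (48.6%), against 26.9% of all promoters. A match is a description of the letters and not a bound site.

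Genes with related functions shared some of these values and not others. Translation factor genes (symbols in eIF, eEF and eRF) had a main peak at 14 of 54 (25.9%), with a median offset of -6.5 bp and 57.1% of summits within 50 bp of a start, near the values of the ribosomal protein genes. Their leading members were eIF6, which acts on the large subunit, with 693, eEF1gamma with 280 and eIF5B with 192. Mitochondrial ribosomal protein genes had a main peak at 17 of 73 (23.3%), with a higher median signal of 185 and a median offset of -141 bp, like other genes. Their leading members were mRpL41 with 1473, mRpS23 with 1382 and mRpS10 with 1292, each above every cytoplasmic ribosomal protein gene. Proteasome genes had 4 of 48 (8.33%), led by Rpn3 with 241, Prosbeta2 with 124 and Rpt5 with 93.8, and their median offset was -20 bp with 3 of the 4 summits within 50 bp of a start. In the main list, summits at the start were thus found in other sets of genes as well. The own lists placed them farther upstream, with median offsets averaging -59.7 ± 31.0 bp for translation factor genes and -93.7 ± 28.4 bp for proteasome genes (SD, n = 3). These rest on 8 or 9 translation factor genes and 2 proteasome genes per own list.

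The list of nucleolar ribosome biogenesis genes had 2 of 14, Rrp1 with 242 and NHP2 with 218. Rrp1 in flies names a recombination repair protein, so NHP2, a protein of the guide RNA particles that modify ribosomal RNA, was the member of that pathway with a main peak. Of 4 genes for factors linked to these promoters, M1BP had a main peak with a signal of 152 and was in 2 own lists, and Dref had 120 at the summit it shares with RpL13 and was in 1. Trf2 and Myc had none.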

How the data were processed

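ChIP-seq peak lists of 3 replicates of CG11695-eGFP embryos were used on assembly dm6. The aligner is not given in the sources used here, nor is the peak caller. The deposited signal and score of each peak are the authors' values, the signal on an unstated scale and the score derived from the irreproducible discovery rate (IDR), with a lowest value of 830 in the thresholded lists. The authors' ranked lists give −log10 of the global IDR. The main list was the authors' conservative thresholded list. Identical records matched its compared sets to replicates 1 (73.7%) and 3 (67.4%). Pair lists hold peaks of pooled libraries, while own lists come from 1 library, with 3404, 2774 and 2716 records for replicates 1, 2 and 3. Read numbers were not in the lists, so depth is unknown and values carry no counting interval.

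Summits were assigned to starts of the Ensembl annotation (BDGP6.54, release 115) on 6 arms with Python 3.11.15, pandas 2.3.3 and numpy 2.4.6, promoters were aligned with Biopython 1.88, and a check on simulated peaks recovered what was put in. The strongest summit within 500 bp stood for each gene. Sequence came from the RefSeq copy of the same release. Alternatives were windows of 250 and 1000 bp, a global IDR of 0.001, the other pair lists, the pooled list, merging within 250 bp, gene starts alone, own lists of equal length and each replicate left out. The text names the 12 members of highest signal, the 5 farthest summits, all paralogues, all members without a main peak and the 3 leading genes of each related list. Members with the smallest range over replicates, the weakest and threshold cases, and neighbours were singled out after their values were seen. The members and lists were chosen with earlier results of these data known. Certain members are counted but not reported by name here. With 1 group no comparison between conditions exists, and no test was run.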

Additional observations from a re-analysis of the deposited data

How the results depend on the processing

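The excess of ribosomal protein genes with a peak over all genes held in each list and setting run, and the counts changed by over 1.5 times in the stricter list alone. At a global IDR of 0.001, 30 members had a promoter peak (32.3%, against 10.3% of all genes), 19 of the large and 11 of the small subunit. There the median offset was -27 bp, the median signal 176 and the upstream share 76.7%, 9 members were in all own lists and the mean own-list share was 18.6%; the list keeps fewer and stronger peaks by construction. The main list compared replicates 1 and 3. The pair list of replicates 2 and 3 and that of replicates 1 and 2 held 48 members each, against 14.0% and 15.3% of all genes. Their median offsets were -14 and -18 bp, with a median signal of 136 in both and upstream shares of 62.5% and 66.7%. Why these pairs held fewer members than the main list was not tested. The gene start alone gave a median offset of 11.5 bp and an upstream share of 43.1%, and summits near no other coding start, an alternative chosen after seeing the data, gave 7.5 bp and 43.3%, so the side of the start on which most summits lie is not settled. The mean own-list share was 42.7% with a window of 1000 bp and 36.6% with own lists of equal length. CTTT at the start stood at 51.6% of members with its C within 10 bases and at 62.4% at any transcript start, the last chosen after seeing the data. No paired analysis was possible because there is 1 group. The depth of the libraries is unknown, so whether a missing peak reflects depth cannot be told.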
